A study of Caenorhabditis elegans with 71 samples.

Results

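The comparison set lin-4(e912) larvae in the last hours of their time course against wild-type larvae in the fourth larval stage (L4), with the mutant taken 4 h later. Its members were 8 of the 71 libraries of the series, defined by genotype, population and time label and not by any measured value: lin-4(e912) cultures at 20C after 42, 44, 46 and 48 h on food, and the wild-type strain N2 at 20C after 38, 40, 42 and 44 h, from the second of its 20C populations. All larvae had been hatched into starvation medium, so that they arrested at the start of the first larval stage, and were then released onto OP50 bacteria. Each library is poly(A) RNA of whole larvae, and each population is 1 culture sampled once per time point. The 4 replicates of a genotype are therefore time points of 1 culture, and the p-values below measure the spread between time-point pairs and not between cultures. Genotype cannot be told apart from population, or from the sequencing run: the mutant libraries were barcoded and run together on 4 lanes, the wild-type L4 libraries on 1 lane.

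lin-4 is a founding microRNA of the heterochronic pathway, the set of genes that gives each larval stage of Caenorhabditis elegans its own pattern of cell divisions and cuticle. It base-pairs with the messages of lin-14, a nuclear DNA-binding protein of early larval fates, and lin-28, an RNA-binding protein that blocks let-7 maturation, and so lets larvae leave early fates. Mutants that lack it repeat early larval fates, molt extra times, form no proper vulva and make no adult cuticle. The microRNA itself was not analysed here.

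Before genes are compared, the 4 h delay can be set against the libraries themselves. Expression levels are RPKM, reads scaled for transcript length and for the number of mapped reads, and correlations are across the 12606 genes with a mean of at least 1 RPKM over the 8 libraries, as log2(RPKM + 1), with no test, since all genes share the same libraries. Within the second wild-type population, lin-4 larvae at 42, 44, 46 and 48 h correlated best with wild type at 38, 40, 42 and 44 h, with Pearson's r of 0.956, 0.968, 0.966 and 0.963. Over both 20C wild-type populations the best match was earlier for 3 of the 4: the first population at 36 h for lin-4 at 42 h (r = 0.976) and at 44 h (r = 0.976), and the first population at 38 h for lin-4 at 46 h (r = 0.970). Both wild-type populations were sampled at 38 h, and correlated there at r = 0.987. The second population starts at 38 h, so lin-4 at 42 h could not be matched there at a delay over 4 h, and the first pair does not tell a 4 h delay from a longer one. Delays of 4 and 6 h lay close there for lin-4 at 44 h (r = 0.9680 and 0.9675) and at 46 h (0.9662 and 0.9649). The gap was wider at 48 h (0.9626 and 0.9574). With the first population counted in, the best matches of the 3 earlier mutant libraries lay at delays of 6 or 8 h. Larval genes that cycle with the molts depend on this choice, and the main list counts are also given at delays of 0, 2, 6 and 8 h.

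**Figure D1:**
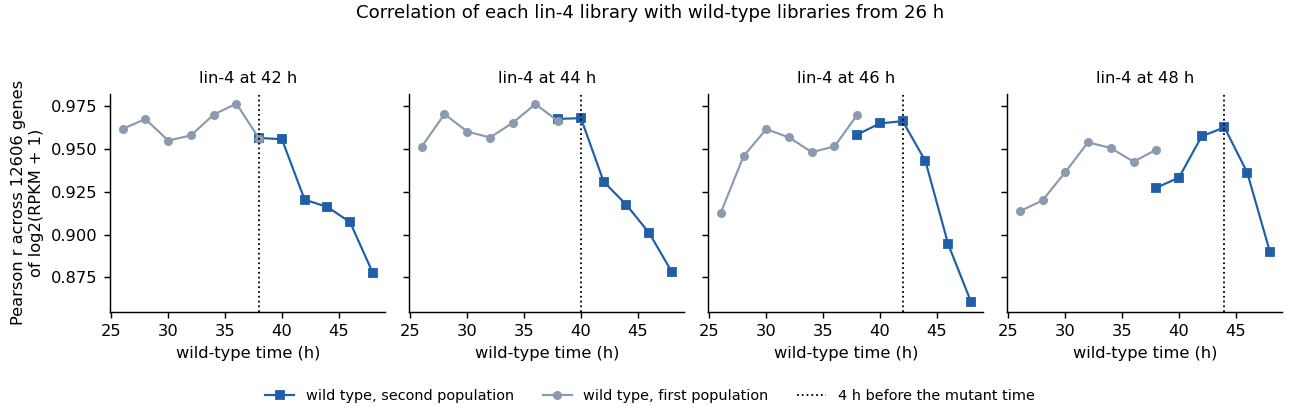
Pearson correlation of each lin-4 library (panels, 42 to 48 h) with the wild-type libraries from 26 h, by wild-type time in hours, for the second and the first population. The dotted line marks the wild-type time 4 h before the mutant time, where the second population peaks in all 4 panels.

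By estimate from the low values of the table, the 8 libraries hold 26.2 to 31.6 M reads for lin-4 and 29.3 to 35.4 M reads for wild type. Defining genes of the major tissues were present in both genotypes, with summed levels of 10034 to 10665 in lin-4 larvae and 13722 to 14643 in wild type for 28 body wall muscle genes, 7646 to 8758 in lin-4 larvae and 7837 to 9560.1 in wild type for 21 intestine genes and 539 to 661 in lin-4 larvae and 579 to 595 in wild type for 27 neuron genes, all in RPKM. The 9 embryo markers were near 0, with summed levels of 0.105 to 0.434 in lin-4 larvae and 0.276 to 0.528 in wild type. In bulk libraries of whole larvae, fewer cells of a type and less RNA per cell cannot be told apart.

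Of the 12606 genes tested, 431 (3.42%) were called, of which 318 rose in lin-4 larvae (2.52% of those tested) and the rest fell (0.896%). A gene is called here when its Benjamini-Hochberg adjusted p from limma, with the pair as a block, is under 0.05 and its difference is at least 1 on the log2(RPKM + 1) scale, that is 2-fold or more. By the adjusted p alone, 3991 genes were higher and 1028 lower in lin-4 larvae, so many genes without a call missed only the 2-fold minimum. All 431 moved the same way in 4 of 4 pairs, which a call rule fitted on these same pairs largely ensures, so it is no separate support. The 4 mutant values lay wholly above the 4 wild-type values for 161 of the 318 (against 23.6% of all genes tested), and wholly below for 83 of the genes that fell (against 5.62%). The median difference over all genes was 0.14, and after median-of-ratios rescaling, which moved it to 0.015, 159 genes fell and rises made up 59.6% of the calls, beside 73.8% without rescaling. Without the pair block the counts were 182 and 89. Genes that were called in the same direction at all 5 delays, from 0 to 8 h, numbered 50 of the 318 and 14 (12.4%) of those that fell.

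Many larval genes cycle, so the mutant was also set against every wild-type library from 26 h on, 13 in all, which cover late larval development. Of the 318 genes that rose, 58 were in all 4 mutant libraries above all 13, against 1086 (8.61%) of all genes tested. Of the genes that fell, 24 lay below all 13, against 158 (1.25%). Rescaling moved the counts over all genes to 310 and 493, but those among the called genes only to 51 and 28. At 38 h, 9 of the 318 and 7 of those that fell differed by 2-fold or more between the wild-type populations, as did 1.48% of all genes.

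Of the direct targets of lin-4, lin-28 rose and lin-14 was higher by less than the 2-fold minimum. Values are given in order of time throughout, 42, 44, 46 and 48 h for lin-4 and 38, 40, 42 and 44 h for wild type. lin-28 stood at 27.8, 22.7, 21.0 and 21.3 RPKM in lin-4 larvae, against 9.00, 7.88, 9.04 and 10.2 RPKM in wild type. Every mutant value exceeded every wild-type value, and also the highest of the 13 wild-type libraries from 26 h, 13.2 RPKM. The difference was 1.27 ± 0.10 (SE, 4 pairs; adjusted p = 0.00343), and without a delay it was 0.98, just under the minimum. lin-14 stood at 52.6, 53.0, 48.96 and 37.1 RPKM in lin-4 larvae, against 35.6, 34.0, 29.3 and 24.4 RPKM in wild type. Its groups did not overlap either, and it was higher in 4 of 4 pairs by 0.62 ± 0.04 (adjusted p = 0.00284). Without a delay lin-14 met the call rule, with a difference of 1.07 (adjusted p = 0.028). Both genes were far below the level of unfed arrested larvae, where lin-28 was at 139 RPKM in lin-4 and 143 RPKM in wild type, and lin-14 at 204 RPKM in lin-4 and 189 RPKM in wild type.

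Later genes of the larval-to-adult switch were called in both directions. lin-41, which encodes a TRIM-NHL RNA-binding protein that holds back adult fates and is itself a let-7 target, was at 49.02, 45.4, 45.2 and 42.7 RPKM in lin-4 larvae, against 19.9, 18.8, 14.9 and 11.6 RPKM in wild type. The groups did not overlap, and lin-41 rose by 1.45 ± 0.11 (adjusted p = 0.00303). Its level was within the range of wild type from 26 h, whose younger larvae reached 85.3 RPKM, and the difference was 0.88, under the minimum, at a delay of 8 h. lin-29, the zinc finger factor that triggers the adult epidermal programme, was at 13.9, 12.3, 11.1 and 15.9 RPKM in lin-4 larvae, against 24.6, 24.2, 32.97 and 42.6 RPKM in wild type. It fell by 1.14 (SE 0.14, adjusted p = 0.00657), with no overlap, and its highest value in any of the 25 mutant libraries was 17.8 RPKM. With no delay the lin-29 difference was -1.16 with an adjusted p of 0.078, so the call was lost. mab-10, a cofactor of LIN-29, was at 10.0, 9.54, 16.0 and 24.6 RPKM in lin-4 larvae, against 12.2, 13.7, 45.2 and 73.5 RPKM in wild type. Wild type at 42 and 44 h was high and the other values overlapped, with a difference of -0.93 ± 0.26 (adjusted p = 0.044) that missed the 2-fold minimum.

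lin-46, a scaffold-like protein that acts against the activity of HBL-1 and under LIN-28, fell by 1.01 (SE 0.19, adjusted p = 0.017). It was at 2.597, 2.19, 1.40 and 1.34 RPKM in lin-4 larvae, against 7.50, 7.34, 4.04 and 1.96 RPKM in wild type, and the wild-type library at 44 h overlapped the mutant. The call depended on the timing and on single pairs: the difference was -0.44 at a delay of 2 h and 0.14 without a delay, and leaving out pair 1, 2 or 3 gave adjusted p-values of 0.057, 0.072 and 0.065. hbl-1, a Hunchback-like factor of early fates, was at 10.0, 9.02, 9.53 and 9.83 RPKM in lin-4 larvae, against 6.81, 5.50, 6.32 and 6.07 RPKM in wild type. Its groups did not overlap, with a difference of 0.57 ± 0.05 (adjusted p = 0.00414). lin-42, the Period homolog that cycles with the molts, was at 117, 86.7, 59.6 and 106 RPKM in lin-4 larvae, against 38.1, 34.5, 35.9 and 86.1 RPKM in wild type. The groups overlapped through wild type at 44 h, with a difference of 0.98 ± 0.23 (adjusted p = 0.028), and without pair 4 it was 1.21 with an adjusted p of 0.030.

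Over the list of 20 heterochronic genes, 19 were tested, 2 rose (lin-28 and lin-41), 2 fell (lin-29 and lin-46) and 15 were not called (mab-10 also fell after rescaling). Rises numbered 2 at no delay, 2 h and 6 h and 1 at 8 h, and falls 0 at no delay, 1 at 2 h and 2 at 6 and 8 h. The list had a median of 0.21 beside 0.14 over all genes tested. The hormone receptor daf-12 differed by 0.44 ± 0.04 and the Retinoblastoma homolog lin-35 by 0.41 ± 0.06, both under 2-fold. The differences of kin-20, lin-66, puf-9, sea-2, dre-1, blmp-1, lep-2, nhl-2 and lin-15B ran from -0.12 for sea-2 to 0.26 for dre-1. tbx-8 was not tested, since it stood at 0 in 7 of the 8 libraries. lep-5, a long noncoding RNA that works with LEP-2 to lower LIN-28 and was chosen after its values were seen, was at 204, 191, 177 and 199.6 RPKM in lin-4 larvae, against 749, 707, 533 and 498 RPKM in wild type. It fell by 1.67 (SE 0.11, adjusted p = 0.00261) and was called at all 5 delays. The lowest wild-type library from 26 h had 498 RPKM, and the highest of the 25 mutant libraries had 204 RPKM. The table does not state strand, so reads of any overlapping gene on the other strand would count towards lep-5.

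**Figure D2:**
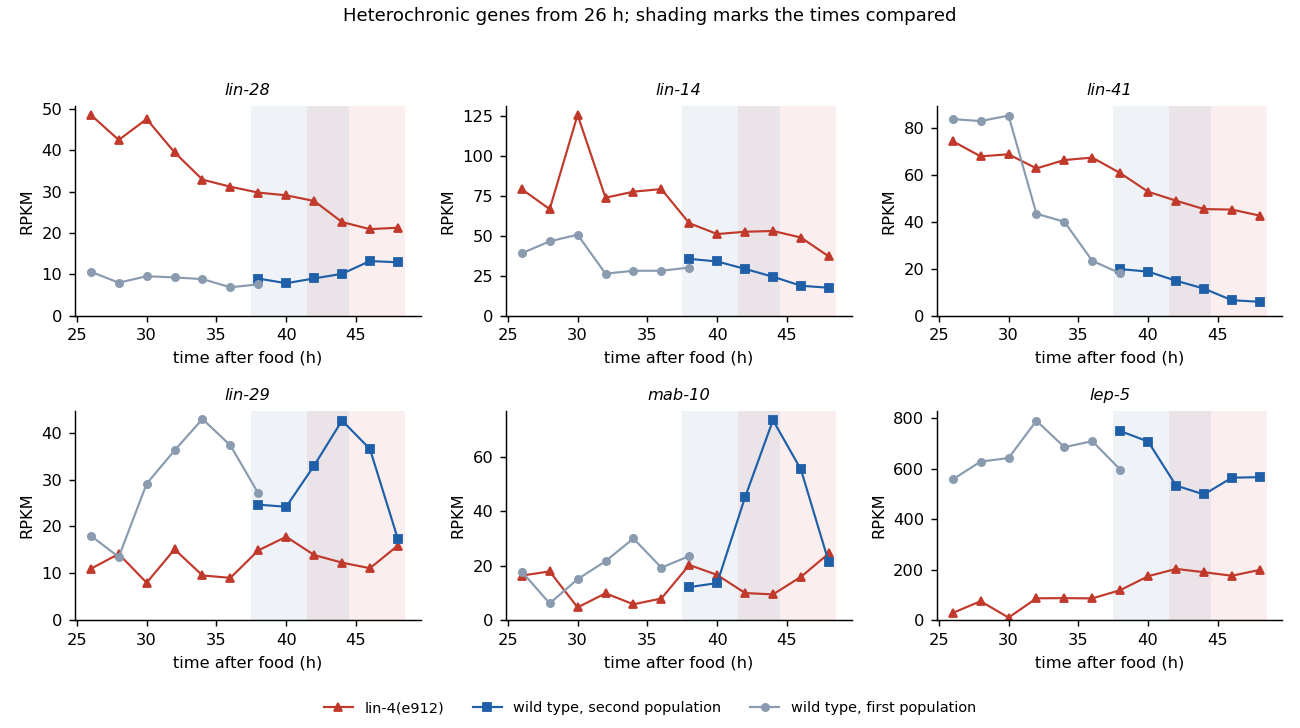
RPKM of 6 heterochronic genes by time after food in hours, from 26 h, in lin-4(e912) and in the second and first wild-type populations, 1 library per point. Shading marks the times compared, red for lin-4 and blue for wild type; lin-28 and lin-41 lie above, and lin-29 and lep-5 below, wild type there.

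Of the adult cuticle collagens that could be tested, 3 of 6 fell, a count that depended on the timing. These 6 passed the filter, a mean of at least 1 RPKM over the 8 libraries, through their wild-type values. A rise could therefore not have been seen among them. Without the filter, 2 of 9 fell and 0 rose. Adult cuticle collagens are made in the L4 stage under LIN-29, and the list held 9: summed over them, lin-4 larvae had 2.32, 2.62, 2.21 and 4.05 RPKM, against 20.3, 17.9, 104.4 and 997 RPKM in wild type. The wild-type sum was 5382 RPKM by 46 h and 7656 RPKM by 48 h, while lin-4 larvae stayed under 5 RPKM at all 4 times. Those that fell were col-38, col-63 and col-112, also named bli-6, while col-49, bli-1 and bli-2 were not called, with a median of -3.28. col-38 was at 0.614, 0.702, 0.477 and 1.01 RPKM in lin-4 larvae, against 6.92, 5.85, 20.0 and 249.9 RPKM in wild type, and wild type later reached 2669 RPKM (48 h). It fell by 3.77 (SE 0.90, adjusted p = 0.029), without overlap, and its highest value in all 25 mutant libraries was 1.01 RPKM. col-112 fell by 3.52 (SE 0.93, adjusted p = 0.038) and col-63 fell by 2.101 (SE 0.50, adjusted p = 0.029). Their ranges were 0.702 to 0.876 RPKM in lin-4 larvae, against 5.25 to 194 RPKM in wild type for col-112, and 0 to 0.0440 RPKM in lin-4 larvae, against 1.61 to 15.1 RPKM in wild type for col-63.

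bli-1 and bli-2 encode collagens of the struts that join the layers of the adult cuticle. bli-1 was at 0.127, 0.148, 0.140 and 0.237 RPKM in lin-4 larvae, against 0.723, 0.592, 22.9 and 196 RPKM in wild type. bli-2 was at 0.379, 0.440, 0.265 and 1.61 RPKM in lin-4 larvae, against 1.74, 1.60, 35.0 and 292 RPKM in wild type. In both genes wild type at 42 and 44 h was far above all other libraries, and the adjusted p-values were 0.109 for bli-1 and 0.074 for bli-2. In the last 2 pairs alone, an alternative added after the data were seen, all 6 tested members fell, with differences of -5.85 for bli-1 (adjusted p = 0.013) and -5.82 for bli-2 (adjusted p = 0.007). With other delays, 4 of 9 tested fell at no delay, bli-1 and bli-2 among them (adjusted p = 0.031 each), 0 of 6 at 2 h, 4 of 5 at 6 h and 1 of 3 at 8 h. A pseudocount of 5 left 0 of the 6 called. Leaving out pair 1, 2 or 3 also left 0 called, with adjusted p-values of 0.054, 0.065 and 0.091 for col-38. col-7, col-19 and col-62 had means under 1 RPKM and were not tested. col-19, the standard marker of adult epidermis, ranged over 0.0760 to 0.269 RPKM in lin-4 larvae, against 0.299 to 0.672 RPKM in wild type, and reached 109 RPKM in wild type at 48 h.

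Among the wider col family of cuticle collagens, 106 of 157 members were tested, of which 15 fell and 5 rose, with a median of -0.62. col-133 was at 19.6, 29.4, 35.1 and 16.3 RPKM in lin-4 larvae, against 634, 639, 305 and 102 RPKM in wild type, and fell by 3.75 (SE 0.44, adjusted p = 0.00622). col-176 was at 7.59, 8.92, 33.6 and 37.4 RPKM in lin-4 larvae, against 57.8, 76.7, 435 and 516 RPKM in wild type, and fell by 3.29 (SE 0.19, adjusted p = 0.0021). Neither gene overlapped between genotypes, and in all 25 mutant libraries col-133 reached at most 35.1 RPKM. col-71 followed the course of the adult collagens, with 2.63, 3.33, 2.51 and 5.08 RPKM in lin-4 larvae, against 11.2, 9.92, 18.5 and 219.5 RPKM in wild type. It fell by 2.68 (SE 0.68, adjusted p = 0.035), a call that was lost without pair 1, 2 or 3 (adjusted p of 0.066, 0.071 and 0.096). The col family counts moved with the timing, with 30 falls and 4 rises at a delay of 6 h 2 of each at no delay, 3 falls at 2 h, and 7 falls and 1 rise at 8 h. Rescaling gave 20 falls and 1 rise, and leaving out 1 pair gave 6 falls without pair 1 or 2, 10 without pair 3 and 21 without pair 4.

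Among body-shape collagens and molting factors the calls were rises, and they held only at the 4 h delay for most genes. Collagens of the annular furrows and of body shape are secreted in waves during each molt cycle. The 6 furrow collagens summed to 1085, 742, 788 and 1664 RPKM in lin-4 larvae, against 147, 164, 589.7 and 1705 RPKM in wild type. Each genotype was highest in its last library, but wild type at 38 and 40 h stood far below every other library. None of the 6 was called by limma in the 4 pairs, and 2 were at an unadjusted p under 0.05, with a median of 1.31 and adjusted p-values of 0.085 for dpy-2 and above for the others; 5 of the 6 rose at a delay of 6 h. Of the 10 body-shape collagens tested, 6 rose (rol-6, sqt-3, sqt-2, rol-8, sqt-1 and lon-3), with a median of 1.10. rol-6 was at 875, 772, 269.6 and 344 RPKM in lin-4 larvae, against 357, 281, 61.0 and 168 RPKM in wild type. It rose by 1.47 ± 0.19 (adjusted p = 0.0071); the lowest values were those of lin-4 at 46 h and wild type at 42 h, a pair, and the ranges overlapped. None of these 6 calls was made at a delay of 0, 2, 6 or 8 h, or without the pair block.

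The molting factors followed the same pattern: of 25 tested, 5 rose (mlt-10, qua-1, nas-37, mlt-8 and mlt-9) and 20 were not called, with a median of 0.49. mlt-10, which is needed to shed the old cuticle, was at 215, 159.6, 45.9 and 93.4 RPKM in lin-4 larvae, against 51.6, 48.8, 11.7 and 37.3 RPKM in wild type. It rose by 1.73 ± 0.13 (adjusted p = 0.00303), again lowest in lin-4 at 46 h and in wild type at 42 h. mlt-11, a protease inhibitor-like protein of the precuticle, ranged over 51.8 to 121 RPKM in lin-4 larvae, against 13.02 to 205 RPKM in wild type, with a difference of 0.81 ± 0.66 (adjusted p = 0.364). At the other delays 0 or 1 of the 25 was called, and 2 were after rescaling or without pair 1, 2 or 3. Of the 36 hedgehog-related genes tested, secreted proteins of the epidermis, 9 rose and 3 fell, with a median of 0.66. wrt-1 was at 186, 122, 51.9 and 138 RPKM in lin-4 larvae, against 20.5, 18.95, 10.2 and 71.9 RPKM in wild type, and rose by 2.23 ± 0.37 (adjusted p = 0.012). Its adjusted p was 0.061 without pair 2 and 0.051 without pair 3. grd-3 was at 7.98, 9.59, 16.6 and 11.5 RPKM in lin-4 larvae, against 45.8, 47.8, 118 and 119.3 RPKM in wild type, and fell by 2.65 (SE 0.19, adjusted p = 0.00293) with no overlap. At a delay of 6 h the hedgehog-related calls were 3 rises and 6 falls, at no delay there were 0, and at 2 and 8 h there were 1 and 2 falls. Of 26 patched-related genes, 4 rose, led by ptr-18 (1.63), and of 24 astacin metalloproteases 4 rose, led by nas-3 (2.09). nas-3 was called at all 5 delays, and ptr-18 at no delay but that of 4 h. The patched-related rises numbered 0 at no delay and 2 h, 2 at 6 h and 1 at 8 h, and the astacin rises 1 at no delay and 2 h, 3 at 6 h (with 1 fall) and 2 at 8 h.

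**Figure D3:**
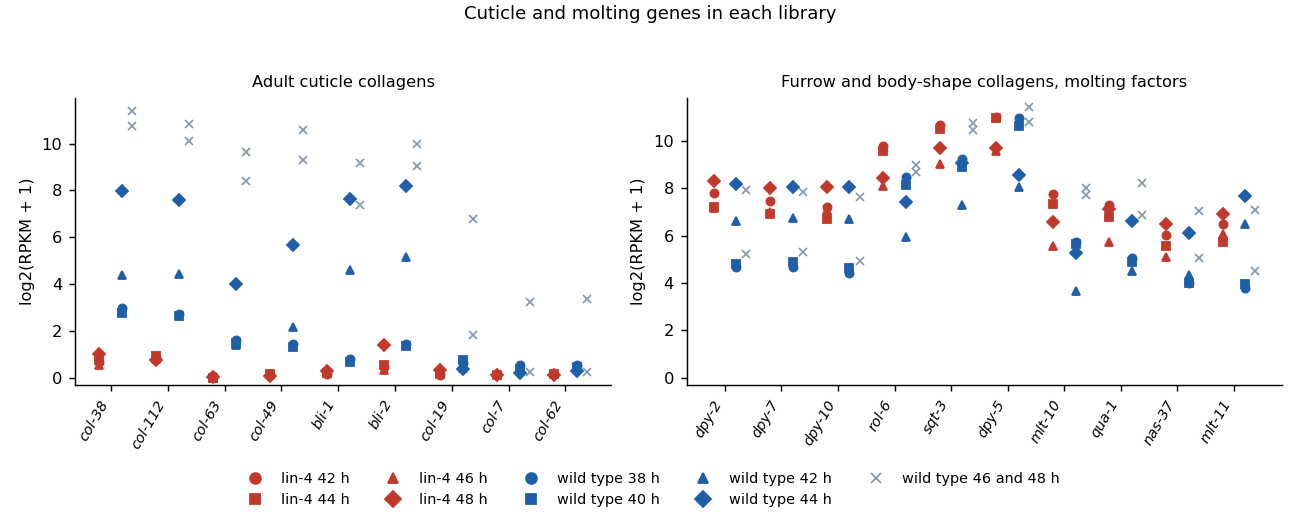
log2(RPKM + 1) of adult cuticle collagens (left) and of furrow collagens, body-shape collagens and molting factors (right), 1 symbol per library: lin-4 in red, wild type at 38 to 44 h in blue, wild type at 46 and 48 h as grey crosses. In the first 6 adult collagens wild type at 44 h lies far above all 4 lin-4 libraries.

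Transcription factors of the epidermis and of organ fate were mostly uncalled. Of 17 seam and epidermis factors, 3 rose, namely nhr-74, nhr-73 and zbed-6, the last also known as bed-3. nhr-74 was at 26.1, 21.7, 15.3 and 21.2 RPKM in lin-4 larvae, against 1.42, 3.27, 5.22 and 5.47 RPKM in wild type, and rose by 2.26 ± 0.36 (adjusted p = 0.011) with no overlap. Without pair 2 its adjusted p was 0.058. nhr-73 rose by 1.26 ± 0.12 and zbed-6 by 1.25 ± 0.13. At 2 h nhr-74 and nhr-73 were called. At no delay 2 genes of the list were called, but of these 3 only nhr-74, with adjusted p-values of 0.077 for nhr-73 and 0.692 for zbed-6. Of the 3 only nhr-74 was called at a delay of 6 h and none at 8 h. None of the 5 Hox genes tested and none of the 27 vulval induction genes tested was called by limma, with 2 and 11 at an unadjusted p under 0.05. At an adjusted p under 0.05 there were 2 and 9, all with differences under 2-fold. The medians of these lists were -0.02 and 0.09, beside 0.14 over all genes. lin-3, the EGF-like signal of the anchor cell, was at 56.2, 53.9, 57.3 and 52.7 RPKM in lin-4 larvae, against 66.3, 68.4, 76.8 and 72.9 RPKM in wild type, lower in 4 of 4 pairs by 0.36 on the log2 scale (difference -0.36 ± 0.05, adjusted p = 0.00792). Of 24 vulval and uterine morphogenesis genes, 1 rose (nhr-113) and 1 fell, the cell fusion gene aff-1. aff-1 was at 1.71, 2.05, 4.00 and 5.47 RPKM in lin-4 larvae, against 3.81, 4.51, 14.7 and 15.9 RPKM in wild type, with overlap, and fell by 1.18 (SE 0.17, adjusted p = 0.00875). Neither gene was called at any other delay.

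Of the 187 nuclear hormone receptors tested, 5 rose and 3 fell, shares near the 2.52% and 0.896% over all genes tested. The counts were 4 and 2 at no delay, 5 and 3 at 2 h, 2 and 3 at 6 h and 0 and 1 at 8 h. nhr-131 had no value in any of the 25 mutant libraries, which is taken as 0, against 5.53, 7.06, 8.52 and 7.80 RPKM in wild type. The lowest of the 13 wild-type libraries from 26 h held 5.15 RPKM, and unfed wild-type larvae 11.1 RPKM, so the gap was not limited to L4. nhr-234 was at 0.583, 0.369, 0.365 and 0.535 RPKM in lin-4 larvae, against 2.44, 2.79, 19.9 and 31.9 RPKM in wild type, with no overlap. It fell by 2.74 (SE 0.66, adjusted p = 0.031), with adjusted p-values of 0.068, 0.099 and 0.078 without pair 2, 3 or 4. nhr-131 and nhr-234 passed the filter of 1 RPKM only through wild type, so a rise could not have been seen for them.

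Of the epidermal antimicrobial peptide genes tested, 8 of 15 rose. The nlp and cnc antimicrobial peptides are induced in the epidermis by fungal infection and wounding, and 15 of the 22 listed were tested and none fell, with a median of 1.41. In 7 of these 8 (not cnc-3), all 4 mutant libraries exceeded all 13 wild-type libraries from 26 h. nlp-29 was at 138, 175.5, 285 and 198 RPKM in lin-4 larvae, against 49.6, 64.2, 69.0 and 36.7 RPKM in wild type, and rose by 1.83 ± 0.19 (adjusted p = 0.00499). nlp-30 was at 127, 139, 106 and 76.4 RPKM in lin-4 larvae, against 23.7, 29.1, 12.3 and 12.4 RPKM in wild type, and rose by 2.54 ± 0.14 (adjusted p = 0.00188). cnc-4 was at 77.5, 89.1, 69.4 and 31.6 RPKM in lin-4 larvae, against 1.70, 4.202, 2.47 and 2.48 RPKM in wild type, and rose by 4.14 ± 0.27 (adjusted p = 0.00261). cnc-2 was at 6.43, 6.96, 7.26 and 8.60 RPKM in lin-4 larvae, against 0.434, 0.959, 1.23 and 1.63 RPKM in wild type, and rose by 2.04 ± 0.11 (adjusted p = 0.00188). None of these 4 overlapped between genotypes. The members did not move alike: nlp-27, in the same family, ranged over 43.9 to 173 RPKM in lin-4 larvae, against 58.9 to 158 RPKM in wild type, with a difference of -0.01 ± 0.18 (adjusted p = 0.958). Other delays gave 4 rises at no delay, 7 at 2 h, 8 at 6 h and 7 at 8 h, with 4 of the 8 called at all 5 delays (nlp-29, nlp-31, nlp-34 and cnc-2). The 5 nlp members were also the only calls among 98 neuropeptide genes tested.

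**Figure D4:**
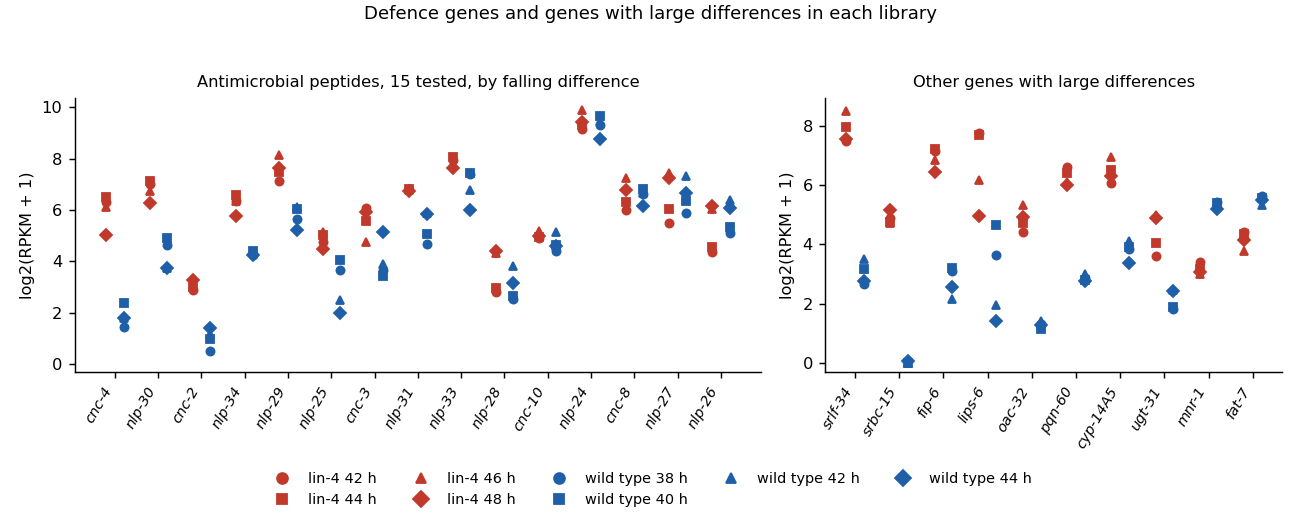
log2(RPKM + 1) of the 15 antimicrobial peptide genes tested, from the largest to the smallest difference (left), and of 10 other genes with large differences (right), lin-4 in red left of wild type in blue, 1 symbol per library. The first 6 peptides on the left are above wild type in all 4 mutant libraries, while the last 5 overlap.

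Of 56 UDP-glucuronosyltransferases, enzymes of detoxification, 7 rose and none fell, beside 2.52% of all genes tested that rose. The rises numbered 6 at no delay, 7 at 2 h and 10 at 6 and 8 h. Of 47 cytochromes P450 3 rose, with 2 at no delay and 2 h and 4 at 6 and 8 h. After rescaling, or at a pseudocount of 5, 5 UDP-glucuronosyltransferases and 1 cytochrome P450 rose. Of 86 C-type lectins, carbohydrate-binding proteins, 2 rose, which is no larger a share than over all genes. ugt-31 was at 11.1, 15.5, 30.8 and 28.6 RPKM in lin-4 larvae, against 2.55, 2.70, 4.55 and 4.35 RPKM in wild type, and rose by 2.23 ± 0.14 (adjusted p = 0.00239). cyp-14A5 was at 65.8, 89.9, 123 and 78.0 RPKM in lin-4 larvae, against 13.4, 14.1, 16.3 and 9.45 RPKM in wild type, and rose by 2.64 ± 0.13 (adjusted p = 0.00168). Both were above every wild-type library from 26 h and called at all 5 delays. fip-6, named for induction by fungal infection, was at 139, 147, 114 and 84.8 RPKM in lin-4 larvae, against 7.58, 8.22, 3.43 and 4.90 RPKM in wild type. It rose by 4.15 ± 0.15 (adjusted p = 0.00119), the groups well apart, but was not called at no delay (2.85, adjusted p = 0.117). Its list of small secreted peptides was split, with 3 rises and 3 falls among 17 tested. At no delay it had 1 rise and 0 falls, at 2 h 3 and 0, and at 6 and 8 h 3 and 2. Members of these families share sequence, and reads that fit more than 1 copy may have been divided between them.

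Among genes with a class name and a mean of at least 5 RPKM, srlf-34 and srbc-15 had the largest differences. srlf-34 was at 178, 248, 362 and 186 RPKM in lin-4 larvae, against 5.26, 8.00, 10.4 and 5.75 RPKM in wild type, and rose by 4.85 ± 0.05 (adjusted p = 3.81e-05). Its level in younger wild-type larvae from 26 h reached 119.4 RPKM, still below all 4 mutant libraries. srbc-15, a chemoreceptor-family gene, was at 28.7, 26.2, 25.09 and 35.0 RPKM in lin-4 larvae, against 0.0522, 0, 0 and 0.0559 RPKM in wild type, and never passed 0.116 RPKM in the 13 wild-type libraries. Its fitted difference of 4.84 ± 0.08 (adjusted p = 0.00029) rests on the pseudocount, since wild type was at or near 0. srbc-15 passed the filter of 1 RPKM only through the mutant, so a fall could not have been seen for it. Unfed lin-4 larvae already held 6.72 RPKM of srbc-15, against 0.594 RPKM in unfed wild type. oac-32, an acyltransferase-family gene, was at 20.2, 25.4, 39.1 and 29.3 RPKM in lin-4 larvae, against 1.50, 1.23, 1.67 and 1.43 RPKM in wild type, and rose by 3.55 ± 0.14. pqn-60 rose by 3.42 ± 0.13 and lips-6, a lipase-family gene, by 3.73 ± 0.21 (adjusted p of 0.00135 for oac-32, 0.0012 for pqn-60 and 0.00198 for lips-6). All 5 genes were called at all 5 delays and none overlapped between genotypes, although lips-6 ran over 30.2 to 213 RPKM in lin-4 larvae, against 1.65 to 23.9 RPKM in wild type.

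The falls of mnr-1, fat-7 and mab-3 were called at all 5 delays. mnr-1, which encodes menorin, an epidermal guidance protein for the dendrites of PVD sensory neurons, was chosen after its values were seen. It was at 9.70, 7.98, 6.94 and 7.32 RPKM in lin-4 larvae, against 41.46, 40.7, 40.6 and 35.7 RPKM in wild type, and fell by 2.18 (SE 0.07, adjusted p = 0.00119). The lowest of the 13 wild-type libraries had 14.8 RPKM. fat-7, a stearoyl-CoA desaturase, was at 20.2, 19.2, 12.6 and 16.6 RPKM in lin-4 larvae, against 48.0, 45.8, 39.3 and 44.1 RPKM in wild type, and fell by 1.33 (SE 0.07, adjusted p = 0.00188). mab-3, a DM-domain factor of sexual development, was at 2.42, 2.54, 2.70 and 1.73 RPKM in lin-4 larvae, against 8.75, 9.40, 11.2 and 15.6 RPKM in wild type, and fell by 1.85 (SE 0.21, adjusted p = 0.0058). None of the 3 overlapped. dmd-3, another DM-domain gene, of the male tail tip, ranged over 0.362 to 0.554 RPKM in lin-4 larvae, against 1.67 to 3.03 RPKM in wild type, and fell by 1.08 (SE 0.11, adjusted p = 0.00482), with a difference of -0.98 without pair 3. Only through wild type did dmd-3 pass the filter of 1 RPKM, so a rise could not have been seen for it. It was not among the genes called at all delays, with -0.90 (adjusted p = 0.066) at 2 h and no test at 0 and 8 h. The male-specific list, with mab-3 and dmd-3 the only calls among 4 tested, summed to 4.91 to 7.53 in lin-4 larvae and 15.4 to 19.9 in wild type (RPKM over 10 members). Most of the wild-type sum was mab-3, at 8.75 to 15.6 RPKM, and the other 2 members tested had higher values in lin-4, so the list did not move as a whole. abu-9, of the pharyngeal cuticle family, fell by 2.73 (SE 0.52, adjusted p = 0.017), and its reads cannot be assigned firmly between it and the near-identical pqn-57. Its adjusted p was 0.072 without pair 2, and it was not called at no delay (-0.84, adjusted p = 0.336) or at 2 h (-1.72, adjusted p = 0.185). Of the 11 pharyngeal cuticle genes tested, 1 fell and 1 rose (pqn-46, by 1.45), with a median of -0.67. The median was 1.00 at no delay, 0.47 at 2 h, -1.23 at 6 h, where 7 fell, and -0.98 at 8 h.

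The germline was compared through its own lists, and showed few calls. Of 27 P granule and germline RNA genes, 26 meiotic axis and synapsis genes and 22 oocyte and eggshell genes tested, 0 were called by limma at a delay of 4 h, with 22, 24 and 9 at an unadjusted p under 0.05. At an adjusted p under 0.05 there were 19, 23 and 7, all with differences under the 2-fold minimum. Values were higher in lin-4 for 25, 25 and 22 of the genes tested, and for 23, 24 and 14 after rescaling. The meiotic list summed to 362, 378, 497 and 569 RPKM in lin-4 larvae, against 272, 299, 378 and 403 RPKM in wild type, with a median of 0.41, and 7 of the 26 rose at a delay of 8 h. The medians of the P granule, meiotic and oocyte lists also moved with the delay. They were -0.06, 0.02 and -0.39 at no delay, 0.12, 0.21 and -0.06 at 2 h, and 0.63, 0.79 and 0.46 at 8 h. For sperm genes the direction depended on the delay as well. At 4 h, all 27 major sperm protein genes tested had lower values in lin-4, with a median of -0.79, and 3 fell. Members with a lin-4 mean under 1 RPKM, msp-81 among them, passed the filter through wild type. A rise could not have been seen for these. Without the filter, 3 of 30 fell and 0 rose, with a median of -0.78. The 30 listed summed to 7.60, 8.12, 24.6 and 89.5 RPKM in lin-4 larvae, against 18.1, 32.9, 98.9 and 188 RPKM in wild type. Both sums were highest in the last library, and the count of falls moved with the delay: 27 at no delay, 26 at 2 h, and 0 at 6 and 8 h. It was 9 after rescaling, 11 without pair 1 and 1 without pair 3. The median was -0.21 at 6 h (18 tested) and 0.21 at 8 h (6 tested). Of 36 other spermatogenesis genes 1 fell, with a median of -0.35, and the median was 0.11 at 6 h and 0.41 at 8 h. msp-81 was at 0.0446, 0.0636, 0.734 and 2.64 RPKM in lin-4 larvae, against 0.639, 1.55, 3.80 and 7.18 RPKM in wild type, with overlap, and fell by 1.14 (SE 0.15, adjusted p = 0.00778). These genes are near-identical copies, so their values are not independent. Yolk proteins, made by the adult intestine, summed to 0.961, 1.18, 3.10 and 6.29 RPKM in lin-4 larvae, against 4.11, 4.43, 16.0 and 39.4 RPKM in wild type. The 2 that could be tested fell: vit-1 by 1.16 (SE 0.15, adjusted p = 0.00714) and vit-6 by 1.93 (SE 0.49, adjusted p = 0.035). vit-1 ranged over 0.715 to 4.93 RPKM in lin-4 larvae, against 2.19 to 16.9 RPKM in wild type, and vit-6 over 0.118 to 0.777 RPKM in lin-4 larvae, against 1.04 to 18.1 RPKM in wild type. Only through wild type did vit-6 pass the filter of 1 RPKM, so a rise could not have been seen for it. Without the filter, 2 of 6 yolk genes fell. The vit-6 call was lost without any 1 of the 4 pairs, with adjusted p-values of 0.053 to 0.112. At other delays 2 yolk genes fell at no delay, 1 at 2 h, 1 at 6 h and 0 at 8 h, and vit-1 differed by -0.56 (adjusted p = 0.050) at 6 h and -0.08 (adjusted p = 0.839) at 8 h. Neither call was made without the pair block or at a pseudocount of 5.

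In body wall muscle, all 28 genes tested had lower values in lin-4, with a median of -0.34. By limma, 26 were at an unadjusted p under 0.05 and 22 at an adjusted p under 0.05. Still 0 were called, since the differences of those 22 were under the 2-fold minimum. act-4 was at 1231, 1292, 1290.3 and 1243 RPKM in lin-4 larvae, against 1836, 1846, 2044 and 2034 RPKM in wild type, and pat-10 at 1711, 1646, 1601 and 1555 RPKM in lin-4 larvae, against 2016, 1934, 2072 and 2078 RPKM in wild type. Neither overlapped, with differences of -0.62 ± 0.04 for act-4 and -0.31 ± 0.04 for pat-10. The part of this muscle difference in the other results was not tested. None of the genes tested was called in the lists of neuron genes (25), intestine genes (21), replication and cell cycle (37), histones (64), ribosomal proteins (71), proteasome (32), heat shock (21), insulin and FOXO signalling (14), TGF-beta signalling (21) or microRNA machinery (11). The numbers at an unadjusted p under 0.05 were 7, 10, 31, 26, 47, 19, 10, 9, 8 and 7 of them, in that order. At an adjusted p under 0.05 from limma they were 5, 7, 29, 19, 37, 13, 10, 7, 7 and 4, all with differences under 2-fold. The medians of these lists ran from -0.08 for ribosomal proteins to 0.38 for histones. The plot of gene lists shows these beside the lists with calls.

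**Figure D5:**
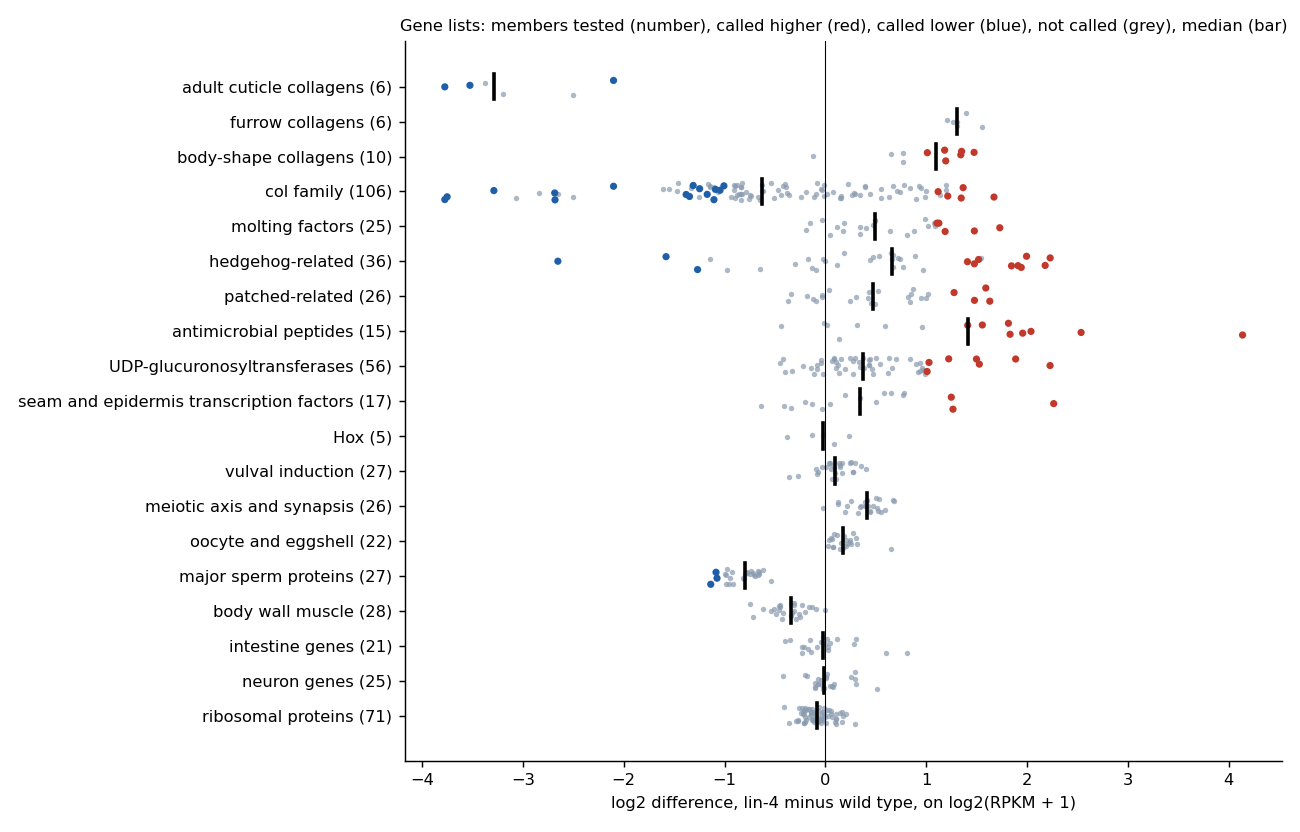
log2 difference (lin-4 minus wild type) of each gene tested in 19 lists, with the number tested in brackets; red and blue points are genes called higher and lower in lin-4, grey points are not called and black bars are medians. Adult cuticle collagens and major sperm proteins lie wholly below 0, and furrow collagens wholly above.

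Earlier times of the same cultures were compared as well. Of the 318 genes that rose, 37 were already 2-fold or more higher in unfed lin-4 larvae (background 3.77%), and 38 had a median difference of 2-fold or more over the matched times from 6 to 38 h (background 0.444%). Of the genes that fell, 8 were already 2-fold or more lower at 0 h (background 1.83%), and 26 over 6 to 38 h (background 0.896%). These are single libraries of each population at each time, matched without a delay, and carry no test. By this measure lin-28 was higher over 6 to 38 h, with a median difference of 1.78, and lin-14, with 1.00, while lep-5 was lower, with -2.31. The medians of srlf-34 (0.23), cnc-4 (-0.26), nlp-29 (0.18) and mab-3 (-0.68) were under 2-fold.

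Whether the genotype difference changed within the window was tested with a slope over the 4 pairs. The difference climbed by 2-fold or more for 127 genes (1.01%) and declined for 147 (1.17%), with 2 residual degrees of freedom before moderation. These counts were 0 and 0 at a pseudocount of 0.1, and 0 and 6 after rescaling, so they give no firm list; at an unadjusted p under 0.05 there were 3255 genes. For dpy-17, a cuticle collagen chosen after its values were seen, the difference was 1.604 in the first pair and -1.79 in the last.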

How the data were processed

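Poly(A) RNA of whole larvae was sequenced, and the authors deposited 1 table of RPKM values per gene and library; BWA 0.5.9 is named in the submitters' processing notes, while no source used here gives the genome build, annotation or counting method. Of 21777 entries, 2643 named RIT and 11 without a gene name were left out (1.64 to 1.88% of the summed RPKM), and cells without a value (9.76%) were taken as 0. Read depth was estimated from low values, of which 77.2% came out as whole reads, too few to rebuild counts. Differences were computed on log2(RPKM + 1) of the deposited RPKM with limma 3.58.1 in R 4.3.3 (eBayes with trend), with the time-point pair as a block, over the 12606 genes with a mean of at least 1 RPKM. A fold change on this scale understates that of low genes. The script was tested on simulated data. Deviations from the group means within the 4 pairs correlated at 0.503, 0.732, 0.571 and 0.722. Only the 4 h pairing was measured this way, so these values do not tell it from pairings at other delays. The members and gene lists were chosen with earlier results of these data known. Genes were named by a rule: the heterochronic list, the 12 largest rises and the 12 largest falls with a gene-class name and a mean of at least 5 RPKM, and, in each list, the 4 largest calls or, with none, the 2 most abundant genes. The genes lep-5, mnr-1, col-19, col-49, bli-1, bli-2, mlt-11, nlp-27, dpy-17 and any other list member outside the rule were chosen after their values were seen. Alternatives were other pseudocounts, filters, delays and scaling, no block, and each pair left out. Python 3.11.15, NumPy 2.4.6, pandas 2.3.3 and Matplotlib 3.10.9 were used.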

Additional observations from a re-analysis of the deposited data

Results flagged for a closer look

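Of 144 groups of 4 libraries, from 72 genes in each genotype, 5 held a library apart from the other 3 by Dixon's test, where chance flags about 1 in 20. All 5 were wild type. The 44 h library was high for lin-42 (86.1 RPKM) and col-63 (15.1 RPKM), and low for mnr-1 (35.7 RPKM). The 42 h library was low for sqt-3 (156 RPKM), and was the only one with a value for tbx-8 (0.0311 RPKM).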

How the results depend on the processing

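Against 318 rises among 431 calls, the counts of rises and falls without the replicate block were 182 and 89, with 178 and 89 shared. A pseudocount of 5 gave 178 rises and 52 falls, and one of 0.1 gave 211 falls. At other delays there were 108 rises at 2 h, 106 rises and 359 falls at no delay, and 209 rises and 70 falls at 8 h. Leaving out 1 pair gave 221 to 314 rises and 81 to 130 falls. The slope counts were 0 and 0 at a pseudocount of 0.1, and 0 and 6 after rescaling. Genes above every wild-type library numbered 2172 (114 called) against the second population alone and 310 after rescaling; genes below numbered 352 (53 called) against the second population alone, 73 (7 called) from 14 h and 493 after rescaling. Direction turned for lin-46 without a delay (0.14, adjusted p = 0.668) and for zbed-6 at a delay of 8 h (-0.10, adjusted p = 0.781); the cause was not tested. Of 46 called genes followed by name, 34 stayed called without the block, 46 after rescaling, 32 at a pseudocount of 5, 24 of 45 tested at no delay, 30 at 2 h, 35 of 45 at 6 h and 28 of 42 at 8 h. Depth limits genes near 0, such as col-63 and vit-6.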

Other observations

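Some called genes lay next to each other in the RefSeq WBcel235 gene order. Of 423 called genes with a place in it, 80 stood beside a gene called in the same direction, in 32 runs; the number expected by chance was not computed. The longest run held 5 genes that rose: str-83, nlp-34, nlp-31, nlp-30 and nlp-29. The genes cnc-4, cnc-3 and cnc-2 also rose as a run, and grd-13, grd-3 and grd-10 fell as a run. Near-identical neighbours share reads, and their part in these runs was not tested.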
